A study of Mus musculus with 24 samples.

Results

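Gene activity was compared between mouse embryonic stem (ES) cells differentiating in culture and whole mouse hearts. A gene belonged to the set described here when all 6 culture arrays lay above all 6 heart arrays, or all 6 lay below. By this rule 4456 of 19920 measured genes (22.4%) were apart: 2565 with culture above hearts and 1891 with hearts above culture. At exon level 36373 of 241576 probe sets (15.1%) were apart, 21198 with culture above and 15175 with hearts above.

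The culture side held undifferentiated ES cells (day 0), embryonic bodies (day 7) and cardiac bodies (day 14), and the heart side held whole hearts of mice taken at E17.5, P1 or adulthood, with 2 arrays in each group. ES cells were driven toward cardiomyocytes in a DMEM-based medium with 10% serum, RNA was taken up in TRIzol, and ribosomal RNA was depleted before amplification and hybridization to Affymetrix mouse gene arrays. No genotype, transgene or drug treatment is given for any group, and the labels give no ES cell line, mouse strain, sex or adult age, nor whether the 2 arrays of a group came from separate cultures or animals. The p-values therefore measure the spread between these samples, which may be technical. Cardiac bodies are mixed aggregates and not purified heart muscle cells, and a whole heart holds muscle, vessel, connective, blood and nerve cells.

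ES cells keep an open, self-renewing state through a small network of transcription factors built around Oct4, Sox2 and Nanog, and they cycle fast with little pause before DNA synthesis. As they differentiate in aggregates, some cells pass through mesoderm and form beating heart muscle of an immature, fetal kind. A heart also contains many cells that are not muscle, among them endothelium, fibroblasts, pericytes and macrophages, and after birth its muscle cells stop dividing and turn from glucose to fatty acids as fuel.

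All values are log2 array signals, so a difference of 1 is a doubling. A difference is the mean of the 3 culture groups minus the mean of the 3 heart groups and is given with its standard error (SE). A gene was called at an adjusted p under 0.05 in a limma fit over all 12 arrays, which takes the spread between the 2 arrays of a group as its error. Beside this p "between arrays", a p "between stages" is given from a fit of the 6 group means, 3 against 3, in which the differences among ES cells, embryonic bodies and cardiac bodies, and among the heart ages, count as error. The rule itself used the contrast between culture and hearts, so the differences and p-values of genes chosen by it are a description.

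The labels were checked against marker genes. All 7 ES cell markers were at or above the typical array median in ES cells, embryonic bodies and cardiac bodies. Their mean level ran from 8.06 to 11.31 over the culture arrays against 4.75 to 5.12 over the heart arrays. Esrrb among them overlapped between the sides, with a mean of 6.39 in embryonic bodies against 6.77 in adult heart. All 7 heart muscle markers reached the array median in cardiac bodies and in every heart group, while 3 did in ES cells and 2 in embryonic bodies. Their mean level was 10.91 and 11.34 on the cardiac body arrays and 5.5 to 5.81 on the other 4 culture arrays, against 12.04 to 12.52 on the heart arrays. The 2 arrays of a group correlated across genes with r from 0.971 in P1 heart to 0.993 in ES cells. The largest principal component of the 12 arrays, with 61.8% of the variance, put the 6 culture arrays on its negative side and the 6 heart arrays on its positive side. The cardiac body arrays lay nearest the hearts on it, at -39.88 and -56.98, and the E17.5 arrays nearest culture, at 32.85 and 34.38. In these bulk samples, fewer cells of a type and less RNA per cell cannot be told apart.

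**Figure D1:**
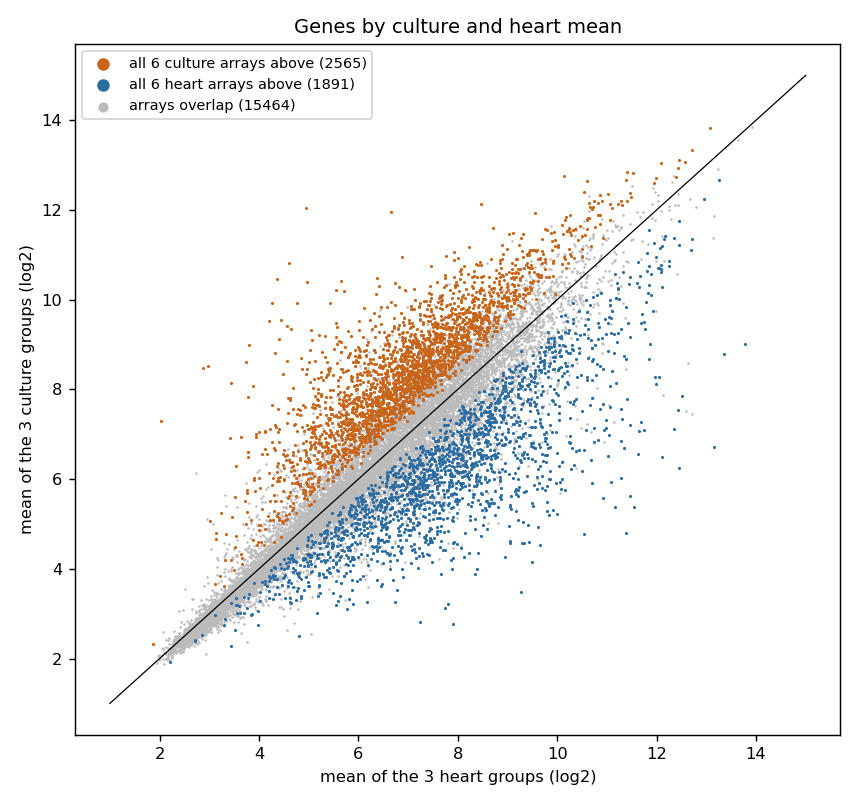
Mean level of each of 19920 genes over the 3 culture groups (vertical axis, log2) against its mean over the 3 heart groups (horizontal axis, log2); the diagonal marks equal levels. The 2565 genes with all culture arrays above lie over the diagonal, the 1891 genes with all heart arrays above lie under it, and 753 of those 1891 genes had a culture mean below the typical array median of 5.66.

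Over all genes, 5322 (26.7%) were called higher in culture and 5220 (26.2%) were called lower, with a median difference of -0.05. The fit between stages called 2443 genes, 1442 of them higher in culture (7.24%) and 1001 lower (5.03%). Of the 4456 genes apart, 4449 were called between arrays. The rule chose them on the same arrays, so this count is not a separate test. Genes with culture above made up 12.9% of all genes and differed by a median of 1.29, and genes with hearts above made up 9.49% and differed by a median of -1.39. The gap between the nearest arrays of the sides was mostly small, with a median of 0.37 where culture was above and 0.33 where hearts were above. It reached 1 for 299 genes with culture above and 238 with hearts above, and it reached 3 for 11 and 16 genes. At the edge of the rule, Phf6, Rcor3 and Psip1 were apart by less than 0.01, and Zscan21, Kidins220 and Fzd4 overlapped by less than 0.01. A further 1153 genes were called with a difference of at least 1 and were not apart.

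The sides were not uniform inside. Among genes with culture above, the lowest culture group was cardiac bodies for 1284 genes (50.1%), embryonic bodies for 999 and ES cells for 282. Among genes with hearts above, the highest culture group was likewise cardiac bodies for 964 genes (51.0%), embryonic bodies for 574 and ES cells for 353. The heart group farthest from culture was the adult for 1664 of the 2565 genes (64.9%) and for 1175 of the 1891 genes (62.1%). Calls within a side were also counted, over the same arrays that the rule used. Their shares therefore describe the chosen genes and are not a separate test of these orders. Cardiac bodies were called lower than ES cells at 267 of the 2565 genes (10.4%, against 3.61% of all genes) and higher at 461 of the 1891 (24.4%, against 6.19% of all genes). These counts of cardiac bodies against ES cells depended on single arrays. The 267 became 88 and 77 without ES cells replicate 1 and 2 (1.48% and 1.33% of all genes), 57 and 161 without cardiac bodies replicate 1 and 2 (1.24% and 2.15%), and 412 when P1 replicate 1 or 2 was left out (5.24%). The 461 became 304 and 279 without ES cells replicate 1 and 2 (3.56% and 3.33% of all genes) and 246 without cardiac bodies replicate 1 (3.19%). Adult heart was called lower than E17.5 heart at 1264 of the 2565 genes (49.3%, against 18% of all genes) and higher at 867 of the 1891 (45.8%, against 18.1% of all genes).

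Pluripotency factors had the largest median difference of the lists that were mostly higher in culture. Of 27 measured factors, 25 were higher in culture (against 26.7% of all genes), none was lower and 22 were apart (against 12.9% of all genes), with a median difference of 3.31, and 17 were called between stages. Dppa5a, an RNA-binding protein of early embryos and ES cells, had the largest difference and the widest gap of all genes apart. Its level was 12.98 and 12.86 in ES cells, 10.42 and 10.36 in embryonic bodies and 12.68 and 13.02 in cardiac bodies, against 4.85 and 4.86 at E17.5, 5.30 and 4.19 at P1 and 5.39 and 5.08 in adult heart. All 6 culture arrays exceeded 10 while no heart array exceeded 5.39, a difference of 7.11 ± 0.17 (adjusted p = 2.0e-11 between arrays and 0.011 between stages). Pou5f1, which encodes Oct4, was at 11.83 and 11.83 in ES cells, 8.47 and 8.52 in embryonic bodies and 11.03 and 11.11 in cardiac bodies, against 4.58 and 4.61 at E17.5, 4.46 and 4.50 at P1 and 4.37 and 3.70 in adult heart. Its culture and heart arrays did not overlap, and embryonic bodies were its lowest culture group, with a difference of 6.09 ± 0.12 (adjusted p = 1.0e-11 between arrays and 0.02 between stages). Tdgf1, a Nodal co-receptor, ranged from 8.14 to 12.56 in culture against 4.37 to 4.91 in hearts. Nr0b1, a nuclear receptor of the ES cell network, ranged from 7.13 to 11.65 in culture against 3.90 to 4.73 in hearts. The core factors Sox2 and Nanog differed by 5.33 and 4.77, and the naive-state marker Zfp42 by 4.88. The list's median was lower in embryonic bodies (6.83) than in cardiac bodies (9.09) or ES cells (9.87), against 4.80 to 4.94 in the 3 heart groups.

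Other genes with the largest differences toward culture were not classical pluripotency factors. Trh, the precursor of thyrotropin-releasing hormone, was at 10.54 and 10.45 in ES cells, 9.73 and 11.10 in embryonic bodies and 10.82 and 9.66 in cardiac bodies, against 4.87 and 5.35 at E17.5, 5.02 and 5.20 at P1 and 4.97 and 4.35 in adult heart. The sides were 4.31 apart, and no culture group stood out. Slc2a3, a high-affinity glucose transporter of embryonic and neural cells, ranged from 11.32 to 12.97 in culture against 5.36 to 7.55 in hearts, with a difference of 5.31 ± 0.23 (adjusted p = 1.8e-09 between arrays and 0.0084 between stages). Dnmt3l, a cofactor of the de novo DNA methyltransferases, differed by 5.09, the long noncoding RNA Lncenc1 by 5.20 and embigin (Emb), a chaperone of lactate transporters, by 5.17. The zinc finger genes Zfp980, Zfp640 and Zfp600 differed by 5.59, 5.53 and 5.27. They belong to families of near-identical copies, so which copy gave the signal is uncertain.

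The fetal RNA-binding and Hmga genes hold back maturation in embryonic tissues. All 6 measured were higher in culture (against 26.7% of all genes) and 5 were apart (against 12.9%). Lin28a, which blocks the processing of let-7 microRNAs, was at 9.37 and 9.60 in ES cells, 9.81 and 9.59 in embryonic bodies and 9.23 and 9.26 in cardiac bodies, against 5.72 and 5.58 at E17.5, 5.48 and 5.85 at P1 and 5.43 and 5.25 in adult heart. It was nearly level within each side, at 9.23 or more in culture and 5.85 or less in hearts, and differed by 3.92 ± 0.11 (adjusted p = 5.1e-11 between arrays and 0.0022 between stages). Igf2bp1, an RNA-binding protein that stabilizes fetal messages, was at 10.38 and 10.84 in ES cells, 10.56 and 10.26 in embryonic bodies and 10.33 and 10.60 in cardiac bodies, against 7.77 and 7.46 at E17.5, 6.38 and 6.94 at P1 and 4.97 and 4.68 in adult heart. Among the hearts it was lower in the adult than at E17.5 (difference -2.79, adjusted p = 3.1e-06), and its difference between culture and hearts was 4.13 ± 0.14 (adjusted p = 2.6e-10 between arrays and 0.026 between stages). Trim71 ranged from 8.81 to 9.50 in culture against 5.54 to 6.11 in hearts, and Lin28b from 6.03 to 8.59 in culture against 4.47 to 5.30 in hearts.

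Simple epithelium genes were also higher in culture. Of 16 measured, 14 were called higher (against 26.7% of all genes), none lower and 13 were apart (against 12.9%). The median difference was 2.14, and 9 were called between stages. Cdh1, the adhesion protein E-cadherin, was at 10.03 and 10.04 in ES cells, 10.20 and 10.56 in embryonic bodies and 9.34 and 9.38 in cardiac bodies, against 5.06 and 5.82 at E17.5, 5.08 and 5.57 at P1 and 5.47 and 5.61 in adult heart, a difference of 4.49 ± 0.14 (adjusted p = 1.7e-10 between arrays and 0.0035 between stages). The surface protein gene Epcam ranged from 7.68 to 9.30 in culture against 3.89 to 5.10 in hearts. The tight junction gene Cldn6 peaked in embryonic bodies, at 10.76 and 10.99, and was 7.02 and 6.93 in cardiac bodies, against 5.33 or less in hearts.

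**Figure D2:**
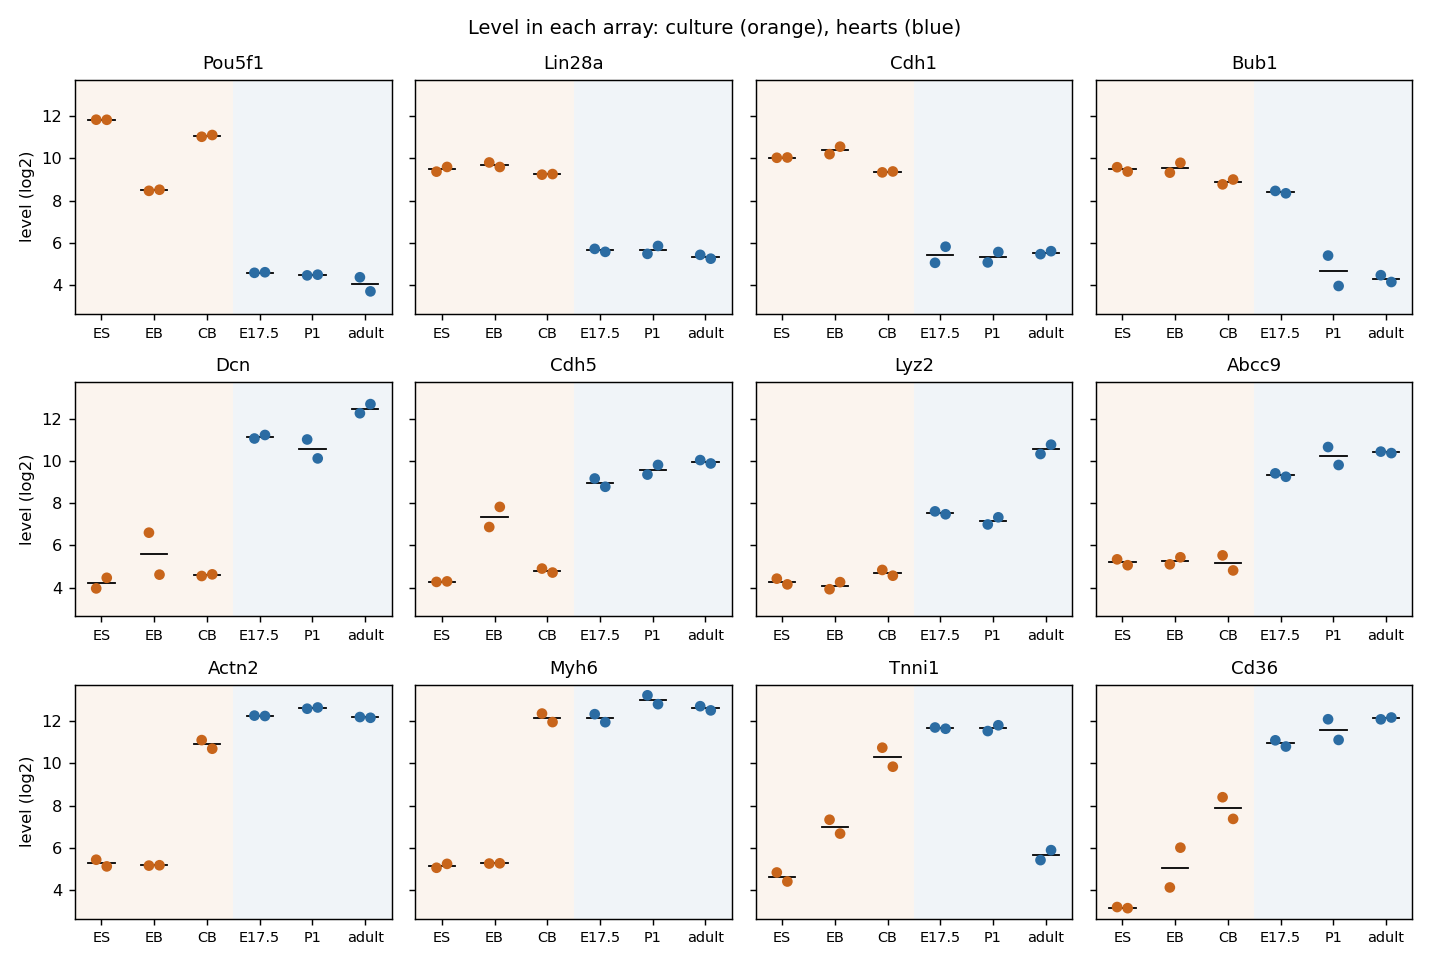
Level of 12 genes in each of the 12 arrays (vertical axis, log2), with the groups along the horizontal axis in the order ES cells, embryonic bodies (EB), cardiac bodies (CB), E17.5, P1 and adult heart; points are arrays and bars are the means of 2. Pou5f1, Lin28a, Cdh1 and Bub1 are higher on every culture array, Dcn, Cdh5, Lyz2, Abcc9, Actn2 and Cd36 are higher on every heart array, and Myh6 and Tnni1 overlap between the sides.

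Genes of cell division were higher in culture without exception among those listed, but E17.5 hearts lay close to culture. All 25 mitosis genes were called higher (against 26.7% of all genes) and 12 were apart (against 12.9%), and only 1 was called between stages. The list's median was 9.45 in ES cells, 9.22 in embryonic bodies and 8.90 in cardiac bodies, against 8.66 at E17.5, 5.73 at P1 and 5.4 in adult heart. Bub1, a kinase of the spindle checkpoint, was at 9.58 and 9.38 in ES cells, 9.33 and 9.79 in embryonic bodies and 8.77 and 9.0 in cardiac bodies, against 8.46 and 8.35 at E17.5, 5.40 and 3.96 at P1 and 4.47 and 4.15 in adult heart. Its lowest culture array was only 0.31 above the highest heart array, which was at E17.5, and the difference was 3.51 ± 0.20 (adjusted p = 1.7e-08 between arrays and 0.09 between stages). Top2a, which untangles DNA before chromosomes part, was at 10.54 and 10.62 in ES cells, 10.29 and 10.43 in embryonic bodies and 9.51 and 9.81 in cardiac bodies, against 9.83 and 9.64 at E17.5, 7.22 and 5.55 at P1 and 4.52 and 4.96 in adult heart. Here the E17.5 arrays overlapped the cardiac body arrays, and the difference was 3.25 ± 0.22 (adjusted p = 7.6e-08 between arrays and 0.14 between stages). Ect2, which acts in cytokinesis, overlapped in the same place, with 9.13 as its lowest culture value against 9.32 at E17.5. The checkpoint kinase Ttk was apart, ranging from 7.75 to 8.63 in culture against 3.87 to 7.05 in hearts.

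All 30 DNA replication genes were called higher in culture (against 26.7% of all genes) and 27 were apart (against 12.9%). The median difference was 2.27, and 17 were called between stages. Orc1, the largest subunit of the origin recognition complex, was at 8.62 and 8.93 in ES cells, 7.50 and 7.59 in embryonic bodies and 7.50 and 8.0 in cardiac bodies, against 5.24 and 4.84 at E17.5, 4.78 and 4.47 at P1 and 4.20 and 4.57 in adult heart, a difference of 3.34 ± 0.13 (adjusted p = 7.8e-10 between arrays and 0.013 between stages). Mcm3, a subunit of the replicative helicase, was at 10.66 and 10.76 in ES cells, 10.04 and 9.87 in embryonic bodies and 9.78 and 10.21 in cardiac bodies, against 8.44 and 8.32 at E17.5, 7.0 and 7.05 at P1 and 5.48 and 5.34 in adult heart, a difference of 3.28 ± 0.10 (adjusted p = 1.7e-10 between arrays and 0.044 between stages). Both genes were lower at each later heart age by group mean. The helicase subunit Mcm5 ranged from 9.99 to 10.68 in culture against 6.82 to 8.43 in hearts, and the licensing factor Cdt1 from 9.03 to 10.16 in culture against 5.82 to 7.75 in hearts. Adult heart was called lower than E17.5 heart at all 30 genes of this list (against 18% of all genes).

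All 21 ribosome biogenesis genes were called higher in culture (against 26.7% of all genes) and 19 were apart (against 12.9%). Between stages 18 were called, and the median difference was 2.03. Nop58, a core protein of box C/D small nucleolar particles, was at 11.01 and 11.12 in ES cells, 10.41 and 10.57 in embryonic bodies and 10.54 and 10.81 in cardiac bodies, against 9.07 and 8.75 at E17.5, 8.16 and 6.67 at P1 and 6.0 and 6.11 in adult heart. The 2 P1 arrays were far from each other, yet both lay below every culture array, and the difference was 3.28 ± 0.20 (adjusted p = 2.7e-08 between arrays and 0.039 between stages). The nucleolar GTPase Gnl3 ranged from 9.75 to 10.27 in culture against 6.10 to 8.27 in hearts, and Dkc1, the pseudouridine synthase of small nucleolar particles and telomerase, from 9.23 to 10.47 in culture against 6.10 to 8.47 in hearts.

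The DNA methylation and Polycomb list was mixed. Of 20 genes 14 were higher in culture (against 26.7% of all genes) and 3 were lower (against 26.2%). With culture above 9 were apart (against 12.9%), and 6 were called higher between stages. Dnmt3b, a de novo DNA methyltransferase, ranged from 7.92 to 8.97 in culture against 5.08 to 5.74 in hearts, a difference of 3.05 ± 0.13 (adjusted p = 1.3e-09 between arrays and 0.0075 between stages). Mtf2, an accessory subunit of Polycomb complex 2, differed by 2.81, Uhrf1, which brings Dnmt1 to replicated DNA, by 2.67, and the core subunit Eed by 2.45. In the other direction, the Polycomb complex 1 gene Bmi1 differed by -0.66 ± 0.19 (adjusted p = 0.01 between arrays and 0.42 between stages). Its difference was -0.11 (adjusted p = 0.63) without the ES cell group.

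The promoters of these lists were read from RefSeq (GRCm38.p6), which gave 250 bases before and 50 after the start for 15614 of the 19920 genes. A total of 14 motifs were searched on both strands. A gene with several promoters was counted once, as holding a motif if any of them did, so the shares are of genes. They were the core TTTGAA of the cell cycle homology region, that core or its variant TTCGAA, the CCAAT box, 4 E2F words as a set, the word TTTCCCGC alone, the Ets word CCGGAAG, the E-box CACGTG, the TATA word TATAAA, the Gata word AGATAA, the CArG box, the MEF2 box, the NRF1 site, the octamer and the estrogen-related receptor element. Those whose shares are given here were chosen after the shares were seen. TTTGAA, the core of the cell cycle homology region, was found for 16 of 21 mitosis genes (76.2%) and for 3 of 26 replication genes (11.5%). Of all genes with a promoter, 17.3% had it. CCAAT was found for 17 of the 21 mitosis genes (81.0%), against 41.7% of all. The E2F words were TTTCCCGC, TTTCGCGC, TTTGCCGC and TTTGGCGC, which can overlap one another. They were found for 11 of the 26 replication genes (42.3%) and for 1 of the 21 mitosis genes (4.76%), against 3.48% of all. The CArG box, bound by serum response factor, was found for 7 of 27 sarcomere genes (25.9%), against 1.63% of all.

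Other motifs were set against all genes apart. Of these, 2051 genes with culture above and 1490 with hearts above had a promoter. The Ets word CCGGAAG was found for 27.1% and 10.1% of them, against 13.6% of all, and the E-box CACGTG for 16.7% and 7.32%, against 9.50%. TATAAA was found for 7.80% of the genes with culture above and 13.02% of those with hearts above, against 13.6% of all. A match describes the letters in this window and is not evidence of binding.

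A promoter of each kind is shown as the 150 bases before the start, with the motif letters in capitals. Top2a carries TTTGAA (read on the other strand as TTCAAA) and CCAAT (on both strands, printed as ATTGG where it is on the other strand). Orc1 carries an E2F word (read on the other strand) and CCAAT (on both strands), and Actc1 a CArG box. Top2a lies at chr11:99024190-99024339 on the minus strand, Orc1 at chr4:108579304-108579453 on the plus strand and Actc1 at chr2:114052876-114053025 on the minus strand.
Top2a: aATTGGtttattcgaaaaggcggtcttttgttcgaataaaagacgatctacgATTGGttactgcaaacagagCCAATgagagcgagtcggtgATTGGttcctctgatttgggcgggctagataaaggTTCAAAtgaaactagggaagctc
Orc1: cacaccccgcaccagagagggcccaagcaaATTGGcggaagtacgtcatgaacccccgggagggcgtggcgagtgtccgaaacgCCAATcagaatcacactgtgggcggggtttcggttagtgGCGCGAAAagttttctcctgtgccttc
Actc1: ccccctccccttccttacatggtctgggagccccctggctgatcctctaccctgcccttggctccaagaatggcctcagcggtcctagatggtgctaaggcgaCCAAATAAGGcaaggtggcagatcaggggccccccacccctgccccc

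Heart muscle genes were lower in culture, with cardiac bodies well above the other culture groups. Of 30 sarcomere genes 29 were called lower (against 26.2% of all genes), 16 were apart (against 9.49%) and the median difference was -3.97. Between stages 9 were called, and 26 were called higher in cardiac bodies than in ES cells (against 6.19% of all genes). Actn2, the Z-disc crosslinker alpha-actinin, was at 5.44 and 5.12 in ES cells, 5.16 and 5.18 in embryonic bodies and 11.10 and 10.69 in cardiac bodies, against 12.26 and 12.24 at E17.5, 12.59 and 12.64 at P1 and 12.19 and 12.16 in adult heart. The cardiac bodies lay 1.06 below the nearest heart array and far above the other culture groups, and the difference was -5.23 ± 0.10 (adjusted p = 1.0e-11 between arrays and 0.082 between stages). Myoz2, a Z-disc protein that binds calcineurin, was at 3.58 and 4.58 in ES cells, 3.85 and 3.67 in embryonic bodies and 8.65 and 7.88 in cardiac bodies, against 10.39 and 10.01 at E17.5, 10.85 and 11.13 at P1 and 12.39 and 12.23 in adult heart, a difference of -5.80 ± 0.18 (adjusted p = 1.5e-10 between arrays and 0.043 between stages). Tnni3, the adult cardiac troponin I, ranged from 4.67 to 9.75 in culture against 10.85 to 12.52 in hearts. Actc1, the cardiac alpha-actin, was at 13.50 and 13.26 in cardiac bodies and at 8.61 or less in the other culture groups, against 13.68 or more in hearts. It was apart by only 0.18, as cardiac bodies nearly reached the hearts. Tnnt2, the cardiac troponin T, was apart by 0.39, ranging from 5.99 to 12.87 in culture against 13.27 to 13.49 in hearts.

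Several of the best known sarcomere genes were not apart. Myh6, the fast alpha myosin heavy chain of the adult mouse heart, was at 5.06 and 5.24 in ES cells, 5.26 and 5.27 in embryonic bodies and 12.36 and 11.95 in cardiac bodies, against 12.33 and 11.95 at E17.5, 13.22 and 12.80 at P1 and 12.71 and 12.51 in adult heart. The cardiac body and E17.5 arrays overlapped, while ES cells and embryonic bodies lay far below both, and the difference was -5.06 ± 0.12 (adjusted p = 2.3e-11 between arrays and 0.14 between stages). Myl2, the ventricular regulatory light chain, was at 12.16 and 11.67 in cardiac bodies against 12.06 or more in hearts, an overlap of 0.10. Tnni1, the fetal slow skeletal troponin I, was at 4.83 and 4.41 in ES cells, 7.33 and 6.67 in embryonic bodies and 10.74 and 9.84 in cardiac bodies, against 11.70 and 11.64 at E17.5, 11.53 and 11.80 at P1 and 5.42 and 5.89 in adult heart. Adult hearts were nearer to ES cells than to younger hearts for this gene while cardiac bodies were nearer to the younger hearts, and its difference of -2.36 ± 0.18 (adjusted p = 1.5e-07 between arrays and 0.51 between stages) was not called in a fit of 2 sides only (adjusted p = 0.24). The fetal beta myosin Myh7 overlapped too, at 9.72 and 9.57 in cardiac bodies, against 12.97 and 12.93 at E17.5 and 8.0 and 6.92 in adult heart.

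For 13 genes called lower in culture, cardiac bodies lay above the heart mean while ES cells lay at least 2 below it. The 8 with the largest difference between cardiac bodies and ES cells were Ankrd1, Myl9, Myl4, Myl7, Tnni1, Sh3bgr, Prnp and Rgs6, and none of them was apart. Ankrd1, a stretch-responsive nuclear and sarcomere protein, was at 4.64 and 4.36 in ES cells, 5.36 and 6.0 in embryonic bodies and 11.78 and 11.49 in cardiac bodies, against 12.24 and 11.99 at E17.5, 11.08 and 10.90 at P1 and 10.93 and 9.76 in adult heart. Myl7, the atrial regulatory light chain, was at 6.56 and 5.82 in ES cells, 5.55 and 6.05 in embryonic bodies and 12.46 and 11.72 in cardiac bodies, against 12.28 and 12.01 at E17.5, 11.96 and 11.88 at P1 and 5.42 and 11.27 in adult heart. The 2 adult arrays were at very different levels for Myl7, and likewise for the atrial essential light chain Myl4, with 7.01 and 12.28. The difference of Myl7 was -2.77 ± 0.70 (adjusted p = 0.0046 between arrays and 0.4 between stages) with both adult arrays, -3.75 without the low one and -1.80 without the high one, and it was called in each case. It was not called without the ES cell group (-1.86, adjusted p = 0.088), without the embryonic bodies (-1.66, adjusted p = 0.11) or without the E17.5 hearts (-2.10, adjusted p = 0.056).

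Of 19 calcium cycling genes 15 were lower in culture (against 26.2% of all genes) and 2 were higher (against 26.7%). With hearts above 9 were apart (against 9.49%), and 8 were called lower between stages. Pln, phospholamban, the brake on the sarcoplasmic reticulum calcium pump, was at 3.53 and 3.74 in ES cells, 4.35 and 5.0 in embryonic bodies and 12.09 and 11.56 in cardiac bodies, against 12.89 and 12.96 at E17.5, 13.31 and 12.98 at P1 and 13.28 and 13.45 in adult heart. Cardiac bodies came within 0.80 of the hearts and stood far above the other culture groups, and the difference was -6.43 ± 0.14 (adjusted p = 1.6e-11 between arrays and 0.1 between stages). Casq2, the calcium-storing protein of the sarcoplasmic reticulum, was at 5.50 and 4.78 in ES cells, 4.48 and 4.33 in embryonic bodies and 7.55 and 7.07 in cardiac bodies, against 11.60 and 11.39 at E17.5, 11.52 and 11.21 at P1 and 11.72 and 11.36 in adult heart. Here the nearest cardiac body array stayed 3.66 below the hearts, a difference of -5.85 ± 0.15 (adjusted p = 2.8e-11 between arrays and 0.016 between stages). The release channel gene Ryr2 ranged from 5.34 to 9.54 in culture against 10.45 to 12.13 in hearts. The exchanger gene Slc8a1 was not apart, because adult hearts, at 9.26 and 9.07, were inside the cardiac body range.

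Cardiac transcription factor genes were lower in culture for 19 of 24 (against 26.2% of all genes) and higher for 2 (against 26.7%). With hearts above 11 were apart (against 9.49%), and 8 were called lower between stages. Myocd, the coactivator of serum response factor, was at 5.05 and 4.95 in ES cells, 5.66 and 5.35 in embryonic bodies and 7.96 and 7.37 in cardiac bodies, against 9.24 and 9.01 at E17.5, 9.76 and 9.70 at P1 and 10.05 and 9.77 in adult heart, a difference of -3.53 ± 0.12 (adjusted p = 3.5e-10 between arrays and 0.035 between stages). Nkx2-5, an early cardiac homeobox gene, ranged from 7.01 to 8.89 in culture against 9.41 to 10.14 in hearts. Tbx20 overlapped, with 8.95 and 6.50 in the 2 embryonic body arrays and 10.10 and 8.98 in cardiac bodies, against 9.93 or more in hearts. The 2 genes higher in culture were Tbx3, at 1.57, and the heart progenitor gene Isl1, at 1.34, which peaked in embryonic bodies at 7.69 and 8.73. Neither was apart or called between stages (adjusted p = 0.067 for Tbx3 and 0.32 for Isl1).

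Of 17 genes of membrane ion channels and connexins, 16 were lower in culture (against 26.2% of all genes) and none was higher. The median difference of the list was -2.38, and 11 were apart (against 9.49%). Between stages 7 were called, and 3 were called higher in cardiac bodies than in ES cells (against 6.19% of all genes). Abcc9, the regulatory subunit of the ATP-sensitive potassium channel, was at 5.34 and 5.06 in ES cells, 5.10 and 5.44 in embryonic bodies and 5.53 and 4.81 in cardiac bodies, against 9.41 and 9.25 at E17.5, 10.66 and 9.80 at P1 and 10.44 and 10.37 in adult heart. All 6 culture arrays were alike and at least 3.72 below every heart array, a difference of -4.77 ± 0.16 (adjusted p = 3.2e-10 between arrays and 0.0035 between stages). The inward rectifier gene Kcnj2 ranged from 3.33 to 5.31 in culture against 7.25 to 8.45 in hearts, and the delayed rectifier gene Kcnq1 from 5.22 to 6.02 in culture against 8.17 to 9.44 in hearts. The connexin gene Gja5 was not apart, since adult hearts, at 6.0 and 6.78, had low values too.

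Natriuretic and stretch genes were lower in culture for 6 of 8 (against 26.2% of all genes), with 5 apart (against 9.49%). Between stages 4 were called. Nppa, the atrial natriuretic peptide, was at 5.05 and 4.98 in ES cells, 4.75 and 5.24 in embryonic bodies and 8.56 and 8.92 in cardiac bodies, against 12.82 and 12.68 at E17.5, 13.05 and 13.23 at P1 and 10.10 and 12.79 in adult heart. The cardiac bodies stood between the other culture groups and the hearts, and the difference was -6.20 ± 0.34 (adjusted p = 9.4e-09 between arrays and 0.028 between stages). Corin, the protease that cuts the Nppa product to its active form, ranged from 5.18 to 7.55 in culture against 9.31 to 10.58 in hearts. Nppb, the ventricular natriuretic peptide, ranged from 3.79 to 5.95 in culture against 7.01 to 9.63 in hearts.

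**Figure D3:**
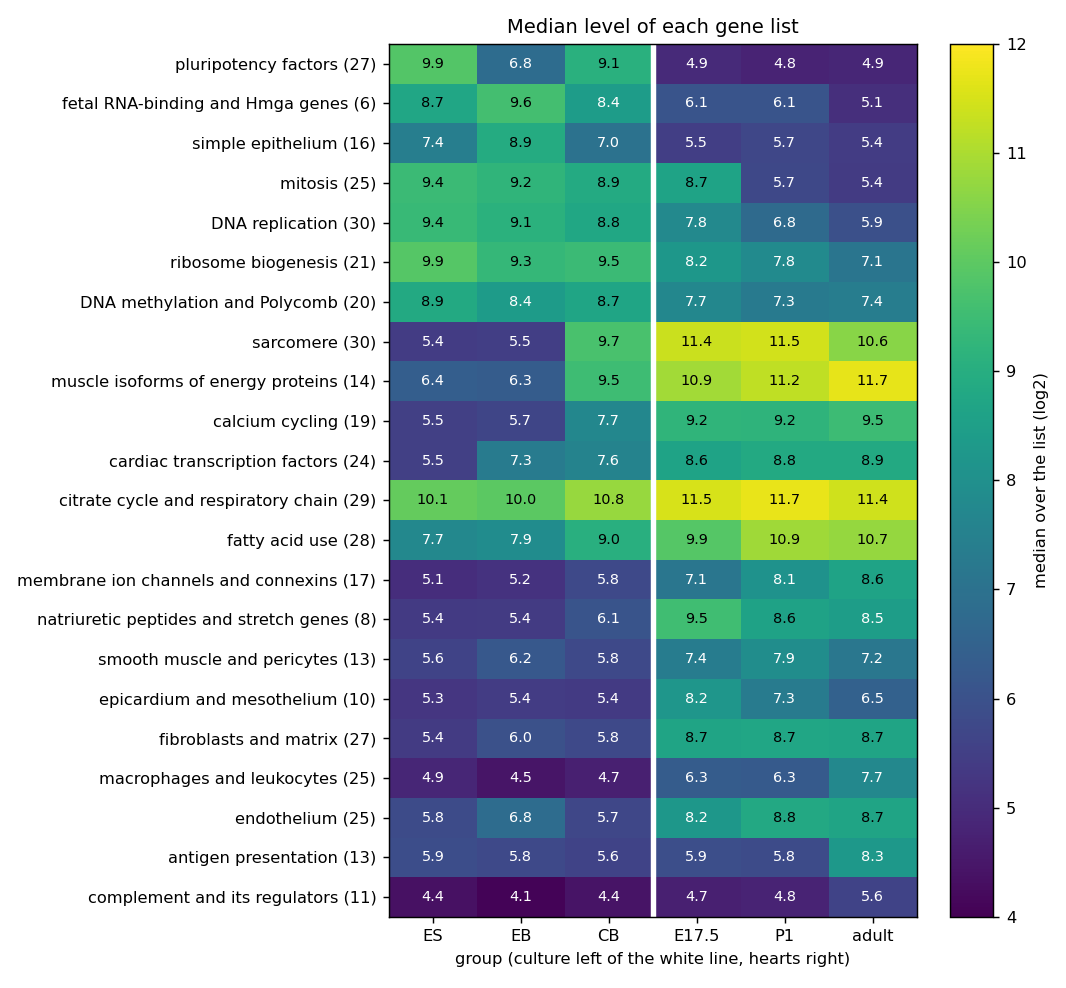
Median level of 22 gene lists in each group (log2, colour and printed value), with the number of measured genes in brackets; the 3 culture groups are left of the white line and the 3 heart groups right of it. The sarcomere median is 9.7 in cardiac bodies and 11.4 at E17.5, while the endothelium median is 5.7 in cardiac bodies and 8.2 at E17.5.

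Genes of energy supply were lower in culture. All 14 muscle isoforms of energy proteins were called lower (against 26.2% of all genes) and 12 were apart (against 9.49%). The median difference was -3.48 and 9 were called between stages. Ckm, the muscle creatine kinase, was at 6.12 and 6.03 in ES cells, 5.47 and 5.82 in embryonic bodies and 8.35 and 7.24 in cardiac bodies, against 12.22 and 12.07 at E17.5, 12.09 and 12.40 at P1 and 11.98 and 11.94 in adult heart. Cardiac bodies were at least 3.59 below the hearts, and the difference was -5.61 ± 0.17 (adjusted p = 9.4e-11 between arrays and 0.011 between stages). Mb, myoglobin, was at 6.93 and 6.27 in ES cells, 6.27 and 6.21 in embryonic bodies and 10.94 and 10.47 in cardiac bodies, against 11.53 and 11.94 at E17.5, 12.74 and 12.80 at P1 and 13.03 and 13.02 in adult heart. Its nearest cardiac body and E17.5 arrays were 0.59 apart, and the difference was -4.66 ± 0.14 (adjusted p = 9.0e-11 between arrays and 0.06 between stages). The mitochondrial creatine kinase gene Ckmt2 ranged from 4.25 to 5.24 in culture against 7.56 to 11.52 in hearts, and the muscle cytochrome oxidase subunit gene Cox8b from 4.63 to 9.16 in culture against 9.96 to 12.95 in hearts. Their widely expressed partner genes were divided, with 5 of 12 higher (against 26.7% of all genes) and 5 lower in culture (against 26.2%). The list is too small for the counts to be read as different from these shares, and none of its genes was called between stages. Among these, the glucose transporter gene Slc2a1 was higher in culture and apart by 0.09, with a difference of 2.14 ± 0.16 (adjusted p = 1.8e-07 between arrays and 0.092 between stages), and the brain glycogen phosphorylase gene Pygb was lower, with a difference of -2.47 ± 0.13 (adjusted p = 7.5e-09 between arrays and 0.088 between stages).

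All 28 genes of fatty acid use were called lower in culture (against 26.2% of all genes) and 23 were apart (against 9.49%). The median difference was -2.11 and 19 were called between stages. Cd36, the main fatty acid uptake protein of the heart, was at 3.20 and 3.14 in ES cells, 4.12 and 6.01 in embryonic bodies and 8.40 and 7.37 in cardiac bodies, against 11.09 and 10.80 at E17.5, 12.09 and 11.11 at P1 and 12.08 and 12.17 in adult heart. The culture and heart arrays did not overlap, and cardiac bodies were the highest culture group, with a difference of -6.18 ± 0.29 (adjusted p = 3.0e-09 between arrays and 0.03 between stages). Ppargc1a, a coactivator of mitochondrial genes, was at 3.99 and 4.33 in ES cells, 3.92 and 4.13 in embryonic bodies and 6.96 and 6.31 in cardiac bodies, against 9.39 and 9.05 at E17.5, 9.63 and 8.55 at P1 and 10.59 and 10.44 in adult heart, a difference of -4.67 ± 0.18 (adjusted p = 7.7e-10 between arrays and 0.027 between stages). Pdk4, which closes the entry of pyruvate into the citrate cycle, ranged from 4.83 to 6.60 in culture against 8.27 to 11.26 in hearts, and Fabp3, the heart fatty acid binding protein, from 7.08 to 9.69 in culture against 11.21 to 12.57 in hearts. Citrate cycle and respiratory chain genes moved less, with 28 of 29 lower in culture, 20 apart, a median difference of -1.05 and 15 called between stages. Ogdh, a subunit of the oxoglutarate dehydrogenase complex, differed by -2.24 ± 0.12 (adjusted p = 8.9e-09 between arrays and 0.034 between stages), the electron carrier gene Cycs by -1.82 and Sdhb of complex II by -1.79.

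Genes of vessel lining, connective tissue and macrophages were mostly lower in culture. All 25 endothelial genes were lower in culture (against 26.2% of all genes) and 20 were apart (against 9.49%). The median difference was -2.47 and 19 were called between stages. The list's median was 5.82 in ES cells, 6.84 in embryonic bodies and 5.71 in cardiac bodies, against 8.23 at E17.5, 8.82 at P1 and 8.69 in adult heart. Cdh5, the endothelial cadherin, was at 4.27 and 4.29 in ES cells, 6.87 and 7.82 in embryonic bodies and 4.90 and 4.71 in cardiac bodies, against 9.17 and 8.77 at E17.5, 9.35 and 9.81 at P1 and 10.04 and 9.88 in adult heart. Embryonic bodies were the highest culture group, with a difference of -4.02 ± 0.16 (adjusted p = 8.1e-10 between arrays and 0.035 between stages). Emcn, a surface sialomucin of capillaries and veins, differed between the 2 embryonic body arrays, which were at 5.14 and 8.02, while both cardiac body arrays were at 3.47 or less, against 8.64 or more in hearts. Fabp4, the fatty acid binding protein of capillaries and fat, ranged from 3.76 to 4.60 in culture against 8.10 to 10.25 in hearts, a difference of -5.35 ± 0.13 (adjusted p = 2.7e-11 between arrays and 0.011 between stages). Pecam1, an endothelial adhesion protein, ranged from 6.31 to 8.30 in culture against 8.86 to 9.51 in hearts, a difference of -1.71 ± 0.15 (adjusted p = 6.9e-07 between arrays and 0.05 between stages).

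Fibroblast and matrix genes were lower in culture for 26 of 27 (against 26.2% of all genes), with 18 apart (against 9.49%). The median difference was -2.80 and 13 were called between stages. Dcn, the collagen-binding proteoglycan decorin, had the largest difference toward hearts of all genes apart. It was at 3.96 and 4.46 in ES cells, 6.60 and 4.61 in embryonic bodies and 4.55 and 4.63 in cardiac bodies, against 11.06 and 11.23 at E17.5, 11.01 and 10.12 at P1 and 12.25 and 12.69 in adult heart. One embryonic body array stood at 6.60, the highest in culture, and all hearts exceeded 10, a difference of -6.59 ± 0.28 (adjusted p = 1.4e-09 between arrays and 0.01 between stages). Dpt, dermatopontin, was at 3.78 and 3.36 in ES cells, 3.46 and 3.76 in embryonic bodies and 3.32 and 3.26 in cardiac bodies, against 8.86 and 9.17 at E17.5, 9.17 and 8.58 at P1 and 9.68 and 10.17 in adult heart. It had the widest gap on the heart side, 4.79, and a difference of -5.78 ± 0.14 (adjusted p = 2.7e-11 between arrays and 0.0029 between stages). Bgn, biglycan, ranged from 4.29 to 5.04 in culture against 9.46 to 11.70 in hearts, Ogn, osteoglycin, from 3.55 to 4.40 in culture against 5.76 to 10.35 in hearts, and Aspn, asporin, from 2.65 to 2.90 in culture against 6.23 to 8.73 in hearts.

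Macrophage and leukocyte genes were lower in culture for 24 of 25 (against 26.2% of all genes), with 18 apart (against 9.49%). The median difference was -1.98 and 9 were called between stages. Lyz2, the lysozyme of macrophages and neutrophils, was at 4.42 and 4.15 in ES cells, 3.92 and 4.26 in embryonic bodies and 4.84 and 4.56 in cardiac bodies, against 7.61 and 7.47 at E17.5, 6.99 and 7.33 at P1 and 10.32 and 10.77 in adult heart. The culture arrays all lay below 5, and adult hearts lay above the E17.5 hearts by 3.01, with a difference of -4.06 ± 0.12 (adjusted p = 1.2e-10 between arrays and 0.042 between stages). The complement gene C1qb ranged from 3.89 to 4.67 in culture against 6.31 to 10.10 in hearts, C1qc from 4.22 to 5.15 in culture against 6.97 to 8.77 in hearts and C1qa from 4.77 to 5.39 in culture against 6.79 to 7.66 in hearts. Adult heart was called higher than E17.5 heart at 22 of the 25 genes (against 18.1% of all genes). Antigen presentation genes were lower in culture for 9 of 13 and apart for 2 (against 26.2% and 9.49% of all genes). None was called between stages. Cd74, the invariant chain of class II molecules, was at 4.55 and 5.18 in ES cells, 4.20 and 4.79 in embryonic bodies and 4.23 and 4.26 in cardiac bodies, against 4.09 and 4.57 at E17.5, 4.64 and 4.74 at P1 and 9.31 and 9.49 in adult heart. Cultures, E17.5 and P1 hearts overlapped, and without the adult group the difference of Cd74 was 0.03 (adjusted p = 0.93). Complement regulators were lower for 8 of 11 and apart for 3, with 2 called between stages. Cd59a ranged from 4.76 to 6.65 in culture against 7.32 to 11.38 in hearts and was not called between stages (adjusted p = 0.1).

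Smooth muscle and pericyte genes were lower in culture for 11 of 13, with 7 apart and 4 called between stages. Rgs5, a G protein regulator of pericytes, ranged from 3.92 to 7.47 in culture against 7.93 to 10.55 in hearts. Acta2, the smooth muscle actin that fetal heart muscle also makes, was not apart, at 6.06 and 5.78 in ES cells, 12.06 and 10.74 in embryonic bodies and 12.10 and 11.72 in cardiac bodies, against 12.50 and 12.47 at E17.5, 12.42 and 12.34 at P1 and 11.08 and 11.11 in adult heart. Epicardial and mesothelial genes were lower for 9 of 10, with 6 apart and 4 called between stages. Upk3b, a mesothelial uroplakin, ranged from 5.24 to 5.86 in culture against 7.23 to 9.05 in hearts, and the epicardial factor Wt1 from 5.89 to 6.64 in culture against 7.19 to 7.74 in hearts. Among red cell genes 2 of 10 were lower in culture, 1 was higher and none was apart. None of them was called between stages, and the counts rested on the embryonic body arrays: 6 were called lower and 2 higher without replicate 1 of that group, and 2 lower and 6 higher without replicate 2. Alas2, the haem enzyme of red cells, was at 5.10 and 4.97 in ES cells, 8.71 and 5.85 in embryonic bodies and 4.80 and 4.80 in cardiac bodies, against 10.49 and 11.61 at E17.5, 7.46 and 8.62 at P1 and 8.58 and 9.11 in adult heart. The higher embryonic body array lay among the hearts while the other lay below them. Fat cell genes were lower for 4 of 10, with 3 apart and none called between stages. Nerve and Schwann cell genes were higher for 3 of 9 and lower for 3, with none apart or called between stages. Over all genes, 26.7% were called higher, 26.2% lower and 9.49% were apart with hearts above. The red cell, fat cell and nerve counts come from lists too small to be read as different from these shares.

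The mean level of the 5 endothelial markers was 5.38 to 7.28 on the culture arrays against 8.78 to 9.35 on the heart arrays. That of the 5 fibroblast markers was 4.73 to 7.28 against 8.79 to 9.51, and that of the 5 macrophage markers 5.21 to 5.64 against 6.69 to 8.44. Of these 5, C1qa, C1qb, Csf1r and Mrc1 were lower in culture and apart, whereas Cd68 overlapped, with means of 8.08 in ES cells, 6.32 in embryonic bodies and 6.86 in cardiac bodies, against 6.33 at E17.5, 6.48 at P1 and 7.94 in adult heart. The 3 epicardial markers had 5.30 to 5.65 against 6.88 to 8.28. Of the fibroblast markers, Col1a1 and Pdgfra overlapped between the sides. The 4 smooth muscle markers had 5.62 to 8.46 against 7.51 to 9.11, and only Myh11 among them was apart. No fat cell, Schwann cell, neuron, red cell or yolk sac marker was apart. No log2 array signal is at 0, so absence cannot be read from these values. The mean endothelial, fibroblast, macrophage and epicardial marker levels moved with the difference between culture and hearts. Their part in the other differences was not tested.

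Of all genes, 26.7% were called higher in culture and 26.2% lower, and 12.9% were apart with culture above and 9.49% with hearts above. The yolk sac, neural and primitive streak lists are too small for their counts of genes apart to be read as different from these shares. Of 17 yolk sac and endoderm genes 9 were higher in culture and 3 lower, none was apart with culture above and 1 with hearts above, and none was called higher between stages. Afp, the fetal serum protein of yolk sac and liver, was at 5.10 and 4.65 in ES cells, 5.34 and 4.83 in embryonic bodies and 10.08 and 9.97 in cardiac bodies, against 4.25 and 4.62 at E17.5, 4.44 and 4.96 at P1 and 4.66 and 4.52 in adult heart. Only the cardiac body arrays stood out, and without that group the difference was 0.40 (adjusted p = 0.062). Ttr, transthyretin, was at 10.44 and 5.87 on the 2 embryonic body arrays and at 7.41 and 7.68 on the cardiac body arrays, against 5.34 or less in hearts. Neural genes were higher for 7 of 16 and lower for 3, with 1 apart in each direction and 1 called higher between stages. Stmn2, a tubulin-binding protein, was 10.15 and 10.13 in ES cells and 5.96 and 6.43 in embryonic bodies. Of 11 primitive streak genes 2 were higher (4 without embryonic bodies replicate 1) and both were apart, Eomes with 5.46 to 6.27 in culture against 4.08 to 4.88 in hearts and Mixl1 with 5.11 to 5.61 in culture against 4.50 to 5.05 in hearts.

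Imprinted growth genes were higher in culture for 6 of 13 and lower for 5 (1 and none between stages). Of all genes, 26.7% were called higher, 26.2% lower and 12.9% were apart with culture above. Only Peg10 of this list was apart, with 8.51 to 11.01 in culture against 6.32 to 7.32 in hearts. Igf2, a fetal growth factor, was at 5.79 and 5.88 in ES cells, 11.89 and 11.60 in embryonic bodies and 11.30 and 11.09 in cardiac bodies, against 11.59 and 11.76 at E17.5, 11.65 and 12.05 at P1 and 9.67 and 11.45 in adult heart. ES cells stood alone at the low end, and without them the difference was 0.11 (adjusted p = 0.78). Circadian clock genes were lower in culture for 12 of 14 and higher for 1, and between stages 3 were called lower and none higher. Only Cry1, a repressor of the clock, was higher, with 7.57 to 8.42 in culture against 5.50 to 7.48 in hearts, and Per1 was lower and apart, with 5.61 to 6.28 in culture against 6.89 to 8.55 in hearts. Nr1d1 was not apart, at 11.23 and 11.25 in adult heart against 7.06 and 7.0 at E17.5.

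How far cardiac bodies had moved from ES cells toward hearts differed among the lists. The place of cardiac bodies was measured for each gene as the share of the distance from the ES cell mean (0) to the heart mean (1) on the log2 scale. Over the members called lower in culture, its median was 0.79 for 29 sarcomere genes, 0.63 for 14 muscle energy isoforms, 0.63 for 15 calcium genes and 0.56 for 19 transcription factors. It was 0.41 for 28 citrate cycle and respiratory chain genes, 0.37 for 28 fatty acid genes and 0.23 for 16 channels and connexins. It was 0.14 for 11 smooth muscle genes, 0.11 for 9 epicardial genes, 0.04 for 26 fibroblast genes, -0.03 for 24 macrophage genes and -0.05 for 25 endothelial genes. These medians describe lists of different size and were not tested against each other. Genes apart with hearts above by at least 2 numbered 524. Of these 189 (36.1%) had a place under 0.1 and 23 (4.39%) a place over 0.75. Genes whose cardiac bodies reach the hearts, such as Myh6 and Ankrd1, cannot be apart, so the rule itself limits high places among these 524.

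**Figure D4:**
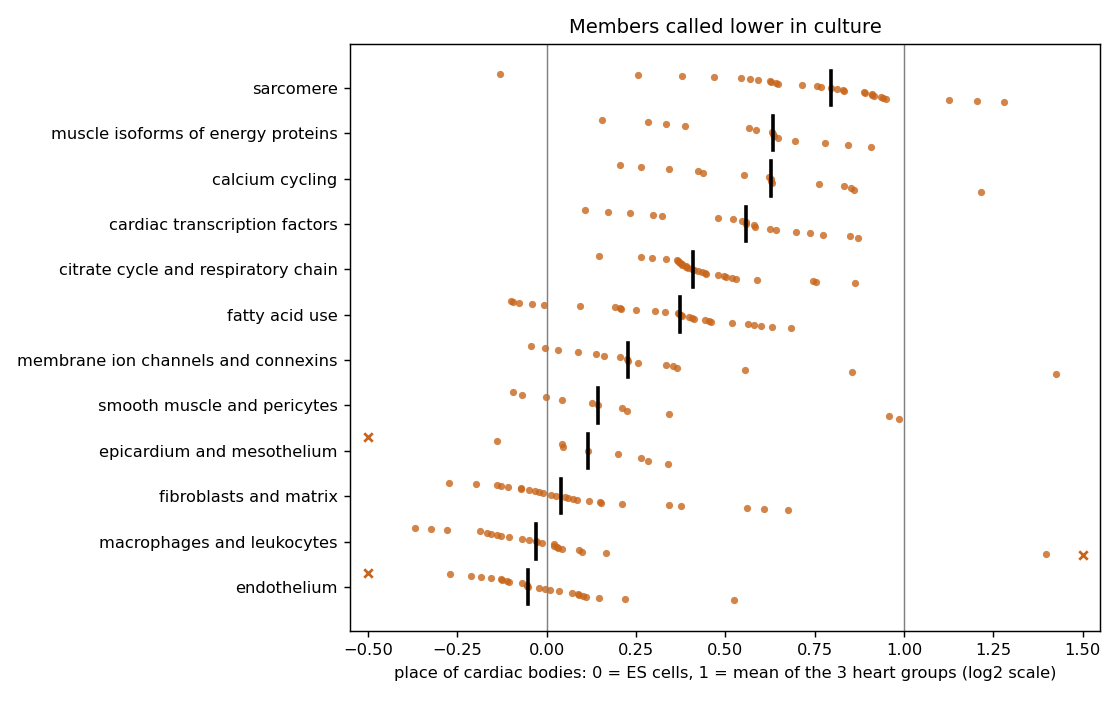
Place of cardiac bodies between ES cells (0) and the heart mean (1) on the log2 scale (horizontal axis) for members of 12 lists called lower in culture; each point is a gene, the black bar is the list's median, and crosses at the edge mark 1 gene each in 3 lists that lies beyond the axis. Medians run from 0.79 for sarcomere genes to -0.05 for endothelial genes.

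Splicing regulators divided between the sides. Of 27 genes 11 were higher in culture and 12 lower (against 26.7% and 26.2% of all genes). In each direction 8 were apart (against 12.9% of all genes with culture above and 9.49% with hearts above). Between stages 3 were called higher and 5 lower. Esrp1, the epithelial splicing regulator, was at 6.71 and 6.69 in ES cells, 8.27 and 8.51 in embryonic bodies and 6.60 and 6.50 in cardiac bodies, against 4.39 and 4.64 at E17.5, 3.99 and 4.35 at P1 and 4.38 and 4.17 in adult heart, a difference of 2.89 ± 0.11 (adjusted p = 4.8e-10 between arrays and 0.027 between stages). On the heart side was Rbm24, a muscle splicing factor, ranging from 6.04 to 9.88 in culture against 10.12 to 11.10 in hearts. Rbm20, which acts on the exons of titin and other sarcomere genes, was at 5.70 and 5.68 in ES cells, 6.39 and 6.18 in embryonic bodies and 8.45 and 7.88 in cardiac bodies, against 9.68 and 9.43 at E17.5, 10.41 and 10.10 at P1 and 8.81 and 8.61 in adult heart. Its lowest heart array, in the adult, was 0.17 above the highest cardiac body array, a difference of -2.79 ± 0.12 (adjusted p = 1.6e-09 between arrays and 0.058 between stages). Mbnl1, which drives postnatal splicing in muscle, ranged from 6.25 to 7.75 in culture against 8.56 to 10.59 in hearts, and Rbfox1, a neuronal and muscle splicing factor, from 4.84 to 5.52 in culture against 6.22 to 9.34 in hearts.

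To compare exon use, a splicing index was computed by subtracting the gene level from the probe set level within each array (both log2), for 92530 probe sets in 7827 genes of at least 4 probe sets that reached the median level. Calls required an adjusted p under 0.05 and an index difference of 1 or more. There were 5126 calls (5.54%) in 2623 genes, 2442 with the index higher in culture and 2684 with it lower, and 4518 indices (4.88%) were apart between the sides. Of the calls, 2115 (in 1366 genes) were also apart. A subset of 850, in 616 genes, had a gene level difference no larger than 1. Of the 850, 593 were lower and 257 higher in culture. In 346 of them (40.7%) the 3 culture means lay within 1 of each other and so did the 3 heart means. For 55 of the 850 cardiac bodies were nearer the heart mean than the mean of the other culture groups. All 850 were chosen with index values apart. The filter itself therefore limits how near the hearts cardiac bodies can lie, and it bears on the 346 as well. The fit between stages called 179 probe sets (0.193%), 41 higher and 138 lower. The files and tables used here give no position or sequence for a probe set. Since no strain is given for the ES cells or the mice, a sequence difference under a probe set and a change in exon use cannot be told apart.

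The 8 largest index differences, 1 per gene, were all lower in culture. In Fubp1, a regulator of Myc transcription and of splicing, the index of probe set 10496897 was -5.63 and -5.17 in ES cells, -4.77 and -5.22 in embryonic bodies and -4.50 and -5.31 in cardiac bodies, against 0.26 and 0.44 at E17.5, 0.17 and 0.18 at P1 and 0.76 and 0.70 in adult heart. Within each side the groups were alike, and only 3 of the gene's 24 tested probe sets were called. The index difference was -5.52 ± 0.17 (adjusted p = 5.4e-06 between arrays and 0.0086 between stages). In Ppfibp1, a liprin that binds phosphatase receptors, probe set 10542821 had a signal of 4.17, 4.74 and 4.78 in the 3 culture groups by mean, against 10.36, 9.81 and 8.95 in the 3 heart groups. The gene itself differed by only -0.05, while the index differed by -5.09 ± 0.17. The index was also lower in culture in Anxa6 (-5.49), Tmem87a (-5.29), Elmod2 (-5.29), Eif2s2 (-4.89) and Frmd5 (-4.81), each called in both fits. In Frmd5 8 of the 10 tested probe sets were called. Its probe set signal was 6.52 in culture and 11.15 in hearts, while the gene value was 6.02 and 5.85. Whether the Frmd5 index reflects exon use or a gene value that missed most of its probe sets was not tested. In Anxa6 the culture indices spread from -7.75 to -4.01. The index of Inpp5d differed by -5.37 and was not called between stages (adjusted p = 0.23).

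In genes known for alternative splicing in the heart, 133 of 929 probe sets (14.3%) were called, against 5.54% of all probe sets tested. Calls fell in 28 of 36 such genes, against 2623 of all 7827 genes tested. In 16 of them a call was also apart, against 1366 of the 7827. The 36 genes held 929 of the 92530 probe sets tested, more per gene than all genes. More probe sets give a gene more chances of a call, so these gene counts are not matched. At gene level 38 of the 49 measured genes of this list were lower in culture, with a median difference of -1.76. The part of these level differences in the calls was not tested. In Pkm, whose alternative exons give the M1 and M2 forms of pyruvate kinase, the index of probe set 10585938 was -3.16 in ES cells, -3.38 in embryonic bodies and -1.30 in cardiac bodies, against 0.63 at E17.5, 0.59 at P1 and 0.67 in adult heart. Cardiac bodies stood between the other cultures and the hearts, and the difference was -3.25 ± 0.12 (adjusted p = 7.1e-06 between arrays and 0.099 between stages). In Tpm1, a tropomyosin gene with muscle and non-muscle exons, the index of probe set 10594662 was -0.08, 0.02 and -2.58 in ES cells, embryonic bodies and cardiac bodies, against -3.96, -4.10 and -4.86 at the 3 heart ages. Here too cardiac bodies lay between, with a difference of 3.43 ± 0.20. Named by the same rule were Ablim1 (-3.87), Dst (3.16), Ryr2 (3.01) and Ank3 (-2.58). The gene levels of these differed by -2.86 in Ablim1, -0.59 in Dst, -4.44 in Ryr2 and -1.35 in Ank3. In Ryr2 the probe set signal itself was lower in culture (10.70) than in hearts (12.13). Its index was higher in culture only relative to the lower gene level there. None of these 6 probe sets was called between stages, where the lowest adjusted p was 0.099.

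**Figure D5:**
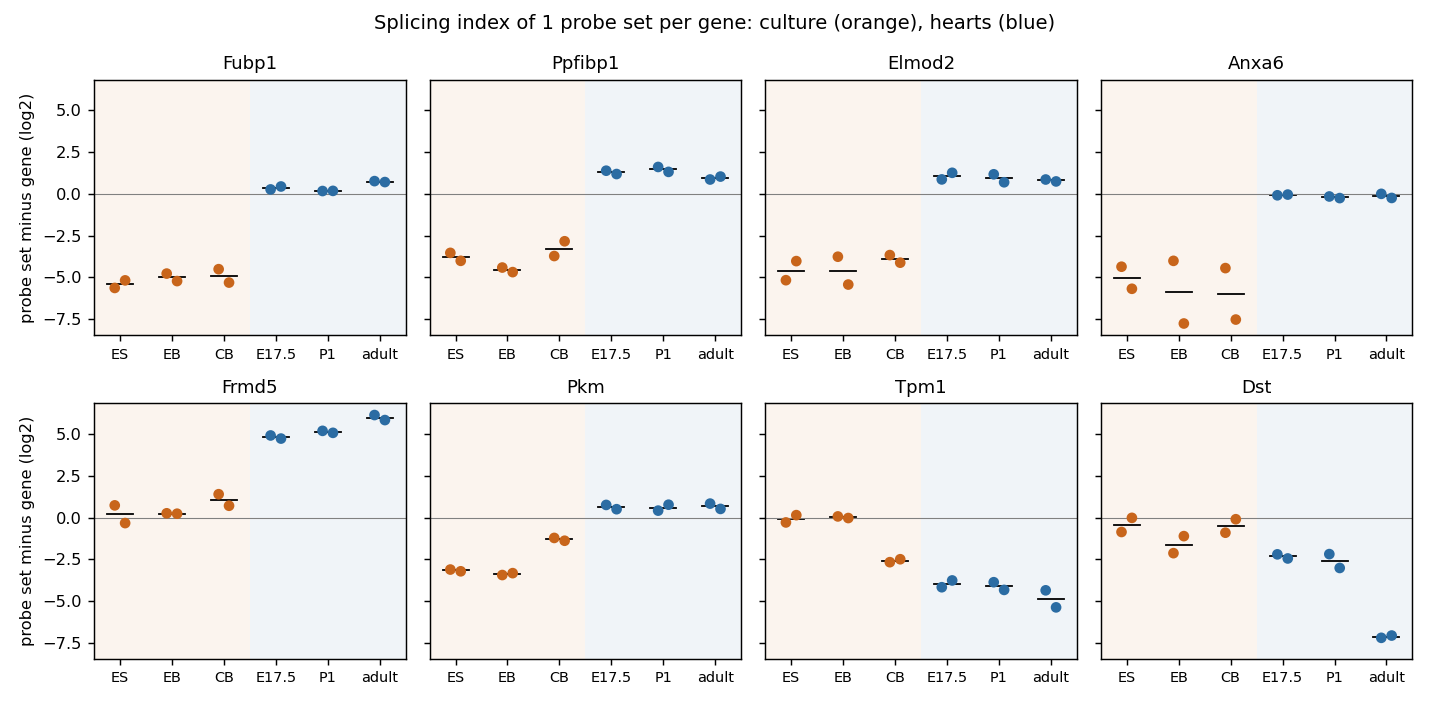
Splicing index of 1 probe set in each of 8 genes (vertical axis, probe set minus gene, log2) in every array, with the groups along the horizontal axis from ES cells to adult heart; points are arrays and bars are the means of 2. Fubp1, Ppfibp1, Elmod2, Anxa6, Frmd5 and Pkm are lower on every culture array, Tpm1 and Dst are higher, and in Pkm and Tpm1 cardiac bodies lie between the sides.

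MicroRNA genes were measured through their transcripts, not as the mature molecules. Of 300 genes with a microRNA symbol, host transcripts included, 61 were called higher in culture and 49 lower, and 14 and 17 were apart. These shares, 20.3% and 16.3% called and 4.67% and 5.67% apart, lay below the 26.7%, 26.2%, 12.9% and 9.49% of all genes. The culture side held the cluster on chromosome 14 that runs from Mir17 to Mir19b-1, and the heart side held Mirlet7c-1 and Mir99a, neighbours on chromosome 16. The mature forms are shown from RefSeq (GRCm38.p6) with the seed, bases 2 to 8, in capitals, because the 5 cluster members measured here fall into 3 seed families, none shared with the heart-side genes shown. Mir92-1, in the same cluster, was not analysed here. Mir17 and Mir20a share one seed, Mir19a and Mir19b-1 another, and Mir18 differs from the Mir17 seed.
miR-17-5p: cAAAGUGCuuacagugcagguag
miR-20a-5p: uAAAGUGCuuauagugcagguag
miR-18a-5p: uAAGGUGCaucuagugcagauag
miR-19a-3p: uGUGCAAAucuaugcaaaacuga
miR-19b-3p: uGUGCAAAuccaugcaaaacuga
let-7c-5p: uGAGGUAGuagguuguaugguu
miR-99a-5p: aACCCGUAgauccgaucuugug
miR-490-3p: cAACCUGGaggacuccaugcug

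Mir19a, at chr14:115044000-115044081 on the plus strand, was at 6.16 and 5.95 in ES cells, 6.69 and 7.33 in embryonic bodies and 5.61 and 5.99 in cardiac bodies, against 4.27 and 4.11 at E17.5, 3.41 and 3.72 at P1 and 2.92 and 2.75 in adult heart. Embryonic bodies were highest and adult hearts lowest, with a difference of 2.76 ± 0.13 (adjusted p = 3.6e-09 between arrays and 0.026 between stages). The other measured cluster members differed by 2.61 (Mir18), 2.50 (Mir20a), 2.50 (Mir19b-1) and 1.54 (Mir17), all apart. Mirlet7c-1, at chr16:77599657-77599750 on the plus strand, was at 2.60 and 2.53 in ES cells, 2.25 and 2.39 in embryonic bodies and 2.65 and 2.62 in cardiac bodies, against 4.60 and 4.66 at E17.5, 5.94 and 3.91 at P1 and 4.66 and 5.02 in adult heart. The culture arrays were close to each other and all below the hearts, although the 2 P1 arrays were far apart, with a difference of -2.29 ± 0.26 (adjusted p = 6.3e-06 between arrays and 0.005 between stages). Mir490 ranged from 2.79 to 3.51 in culture against 4.91 to 6.67 in hearts, Mir99a from 3.51 to 4.27 in culture against 4.95 to 6.91 in hearts and the smooth muscle gene Mir145a from 3.47 to 5.58 in culture against 6.44 to 7.85 in hearts. Mir30a and Mir30c-2 were apart by less than 0.07, with differences of -0.52 and -0.70. Several of these signals lay below the typical array median of 5.66 on both sides.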

How the data were processed

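Each of 12 hybridizations was given at gene level (35556 transcript clusters) and at exon level (241576 probe sets). The deposited values are log2 signals made by the authors with RMA in Affymetrix Power Tools, per the submitters' processing notes. Their versions and the genome build were not given in the sources used here. RMA equalizes the arrays' distributions, so total RNA per sample cannot be read from them, and precision is limited by 2 arrays a group. Probes were named through the platform annotation: 21789 transcript clusters had 1 symbol, 1621 several and 12146 none, and a gene with several clusters was taken at the one with the highest mean. Probe sets that carried their gene's values exactly (1847) were left out of the exon test.

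Group means of 12 arrays were fitted with limma 3.58.1 (lmFit, eBayes) in R 4.3.3, with pandas 2.3.3, numpy 2.4.6 and matplotlib 3.10.9 under Python 3.11.15. Culture minus heart was the mean of 3 groups minus the mean of 3, with Benjamini-Hochberg adjustment over 19920 genes. The splicing index was tested where a gene had at least 4 probe sets, reached 5.66 in all 6 groups, and the probe set reached 6.46 on at least 1 side. The fits were tested on simulated data without differences among the groups of a side, which the real data have. That test bears on the fitting code and not on the calls in these data.

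Members, the 34 gene lists (697 entries, 647 measured) and the tests were chosen with earlier results of these data known. Genes named are the 15 largest differences each way among called genes apart, up to 4 per list in its main direction and 2 in the other, a fixed set of 27 genes, the 3 nearest genes on each side of the rule, 8 probe sets overall and 6 in spliced heart genes, microRNA genes apart, and 8 genes with cardiac bodies above the heart mean. Alternatives covered normalization, level filters, transcript cluster choice, exon-median gene levels, stage means, a fit of 2 sides, each group and each array left out, and the replicate number as a block. Numbers did not pair arrays: of 15 pairs of groups, 2 had a correlation of same-number deviations over 0.1 (range -0.18 to 0.29).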

Additional observations from a re-analysis of the deposited data

Results flagged for a closer look

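Among transcript clusters that carry no single gene symbol, and so enter none of the gene comparisons, 1584 of 13767 (11.5%) had all culture arrays on one side of all heart arrays. In 1212 of them culture lay above the hearts and in 372 the hearts lay above culture, and 22 were apart by at least 2. These shares, 8.80% and 2.70%, lay below the 12.9% and 9.49% of named genes. They are listed as signal in data outside the named genes, and they were not identified here.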

How the results depend on the processing

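The genes named kept their direction and their call under quantile normalization (191 of 192; the exception was Calr, 0.31, adjusted p = 0.052), an intensity trend in the prior and the mean of all transcript clusters (192 of 192 each), and 178 of 179 did under exon-median gene levels (the exception was again Calr, 0.28, adjusted p = 0.19). With the replicate number as a block 206 of 206 named genes and probe sets kept their call, and 10380 genes (5270 higher, 5110 lower) were called; the numbers did not pair the arrays.

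With 1 mean value per group, in which stages count as error, 2443 genes (1442 higher, 1001 lower), 216 list members (77 higher, 139 lower) and 179 probe sets by index (41 higher, 138 lower) were called, and 106 of 206 named results were not. With 2 sides only, 3322 genes were called lower and 29 of 192 named genes were not called. A gap of at least 1 left 537 genes (299 with culture above, 238 with hearts above) and 6287 probe sets (3076 and 3211). With no level filter 13300 indices were called (6456 higher, 6844 lower) and 8490 were apart (3793 and 4697). In genes that differ by at most 1, 2228 were called (1025 and 1203) and 2222 apart (843 and 1379), fewer probe sets being tested. Exon-median levels called 409 genes lower in cardiac bodies than in ES cells. Differences changed sign for Igf2 (0.11) and Prnp (0.039) without the ES cell group, and for Cd74 (0.025) and C7 (0.061) without the adult group.

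Leaving out each array in turn gave 883 to 2539 calls for cardiac bodies minus ES cells (636 to 1495 higher, 247 to 1044 lower; lowest without cardiac bodies replicate 1, highest without P1 replicate 1). It gave 5010 to 8004 calls for adult minus E17.5 heart (2471 to 3972 higher, 2539 to 4032 lower; lowest without E17.5 replicate 1), and 4919 to 6842 indices apart (2096 to 3063 with culture above, 2823 to 3779 with hearts above; highest without E17.5 replicate 1). Genes called between culture and hearts ran from 9640 to 10854 and genes apart from 4568 to 5007. Fewer arrays make the rule easier to meet; the cause of the other changes was not tested.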
